A study of Mus musculus with 4 samples.

Results

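Monocyte-like cells were sought in single-cell RNA-seq of the mouse brain after transient middle cerebral artery occlusion (tMCAO), an ischemic stroke model in which a filament blocks the artery and is then withdrawn so that blood flows again. A cell was a member when it held a UMI (unique molecular identifier, 1 counted transcript molecule) of Lyz2 and of at least 2 of the 5 monocyte genes Ccr2, Ly6c2, Plac8, Ms4a4c and Chil3, and when it held no more than 1 of 3 microglia genes (P2ry12, Tmem119, Siglech), 2 of 5 border macrophage genes (Mrc1, Pf4, Cd163, F13a1, Lyve1), 1 of 4 lymphocyte genes (Cd3d, Cd3e, Cd79a, Cd79b) and 2 of 5 neutrophil genes (S100a8, S100a9, Retnlg, Csf3r, Cxcr2). The rule found 124 members among 54754 kept cells (200 to 6000 genes detected, mitochondrial UMIs no higher than 10%), out of 59429 deposited cells. The sham library held 17 members, and the libraries of days 1, 3 and 7 held 28, 40 and 39. Values below are given in that order, sham, day 1, day 3 and day 7, unless named.

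Each of the 4 groups was 1 library from the ipsilateral hemisphere of male mice labelled as 8 weeks old, given as C57/BL6 in the study's methods, either sham operated (taken on day 7) or taken 1, 3 or 7 days after tMCAO. All mice were perfused with PBS before dissection, and all tissue went through papain digestion and a Percoll step that removed myelin. How many mice a library pooled was not stated in the sources used here. With 1 library per group the difference between groups cannot be told apart from that between libraries or mice, no test between groups was possible, and every interval below is exact at 95% and covers counting error only.

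Monocytes are short-lived blood leukocytes made in the bone marrow. Classical monocytes carry high Ly6C and the chemokine receptor CCR2, follow CCL2 into injured tissue and can turn there into macrophages, while non-classical monocytes carry low Ly6C and high CX3CR1, depend on the transcription factor NR4A1 and patrol the inside of vessels. Dendritic cells share part of the same genes and are known for presenting antigen on MHC class II. Position in tissue was not measured, so that a cell in a vessel and a cell in the parenchyma cannot be told apart here, and the sham members are part of the description for that reason.

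Total depth was 69392755 to 104023002 UMIs per library. Members had medians of 11146, 5623, 6925 and 8140 UMIs, and the deepest sham member alone gave 18.2% of that library's member UMIs. Of the kept barcodes, 303 occurred in more than 1 library, but no barcode was a member in more than 1, and 2 members had a barcode kept elsewhere. Scrublet, a doublet caller, marked 1, 2, 0 and 1 members. Levels below are CPM, UMI counts summed over the members of a library and scaled to the total UMIs of these members. Because deep cells weigh more and members are few, the share of a gene's UMIs that came from its top cell is given where it was large. As a guide to background, the level in endothelial-like cells of the same library is given (at least 3 of Cldn5, Flt1, Itm2a, Ly6c1, Ly6a and Cdh5 and under 3 of 6 leukocyte genes, with 6445, 8510, 7339 and 11115 cells and median depths of 4385, 2471, 3008 and 2447 UMIs). That level mixes free RNA with the genes these cells express themselves. The 2 parts were not separated, so it is not a measure of free RNA alone.

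Lyz2 and Ly6c2, both genes of the rule, each have a near-identical copy. Ly6c2 (chr15:75108158-75111970, minus strand, GRCm38) encodes the monocyte form of the Ly6C surface antigen, and Ly6c1 (chr15:75044018-75048830, minus strand) its endothelial counterpart. In GENCODE vM21 the last 500 bases of their longest coding transcripts were 98.2% identical at aligned bases, and 34 of 410 windows of 91 bases from the Ly6c2 end were found unchanged in Ly6c1, so that some reads could fit both copies. Whether such reads were counted or dropped was not examined here. For Lyz2, which every member must hold, and Lyz1 the same comparison gave 97.4% identity and 14 of 410 windows unchanged, so that Lyz2 levels carry the same uncertainty. The 250 bases before each start (RefSeq, GRCm38.p6) are shown because the membership rule rests in part on 1 copy and the endothelial gate on the other, at chr15:75111972-75112221 and chr15:75048838-75049087, both on the minus strand, read 5′ to 3′.
Ly6c2: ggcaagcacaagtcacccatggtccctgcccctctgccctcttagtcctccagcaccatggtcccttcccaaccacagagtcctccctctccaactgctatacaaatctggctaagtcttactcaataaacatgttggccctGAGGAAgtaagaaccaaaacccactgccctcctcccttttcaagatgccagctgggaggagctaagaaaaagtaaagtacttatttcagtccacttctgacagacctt
Ly6c1: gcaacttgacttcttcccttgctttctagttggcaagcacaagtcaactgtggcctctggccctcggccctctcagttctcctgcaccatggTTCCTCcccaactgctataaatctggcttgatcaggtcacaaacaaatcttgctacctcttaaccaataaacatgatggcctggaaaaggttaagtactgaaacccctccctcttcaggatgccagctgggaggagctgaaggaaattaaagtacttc
Capitals mark GAGGAA on either strand, the core letters preferred by the myeloid factor PU.1, which 23.3% of 32851 promoter windows of this length hold. TTGCNNAA, a C/EBP-type core searched on both strands and present in 9.56% of windows, is in neither. The windows were 81.4% identical at aligned bases, with 80 gap bases.

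The levels of both copies are a description, since Ly6c2 is among the genes that chose members and Ly6c1 among those that chose endothelial-like cells. Ly6c2 stood at 1807, 203, 720.3 and 882 CPM in members and at 1.59, 0.729, 3.26 and 2.84 CPM in endothelial-like cells. Ly6c1 stood at 77.4, 318, 436 and 321 CPM in members and at 4273, 3853, 5462 and 3483 CPM in endothelial-like cells.

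The share of members was highest on day 3 under the rule and in 7 of 9 other forms of it, but not when 3 of the 5 monocyte genes were required or when leukocyte-like cells were the denominator. Members made up 0.167% (0.0972 to 0.267%) of kept sham cells. On day 1 they made up 0.168% (0.111 to 0.242%), on day 3 0.354% (0.253 to 0.482%) and on day 7 0.236% (0.168 to 0.322%), so that the sham and day 1 shares were close and the day 3 and day 7 intervals overlapped. When 3 of the 5 monocyte genes were required, 15, 17, 15 and 30 members remained, and the shares were 0.147%, 0.102%, 0.133% and 0.181%, with day 3 below sham. Thinning every cell to 1000 UMIs, which left out 863, 2142, 967 and 2102 shallower cells and no member, gave 0.139%, 0.110%, 0.223% and 0.159%. Without the members that had at least 3 of 6 endothelial markers or under 3 of 6 leukocyte genes they were 0.147%, 0.138%, 0.212% and 0.175%. The exclusion genes weighed most on day 3, where neutrophil genes removed 36 of 80 cells against 4 of 22, 3 of 52 and 10 of 53 in the sham, day 1 and day 7 libraries. Border macrophage genes removed most on day 1, namely 18 cells against 0, 4 and 1. Before these exclusions the shares were 0.216%, 0.311%, 0.708% and 0.320%. S100a8 and S100a9, the alarmin genes of neutrophils and 2 of the exclusion genes, were at 54.0 and 57.8 CPM in day 3 endothelial-like cells and at or below 3.01 CPM in those of the other libraries, and the part of this background in the exclusions was not tested. Among cells with 3 or more leukocyte genes, members were 7.33% of 232, 2.77% of 976, 5.19% of 674 and 7.00% of 543 cells.

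**Figure D1:**
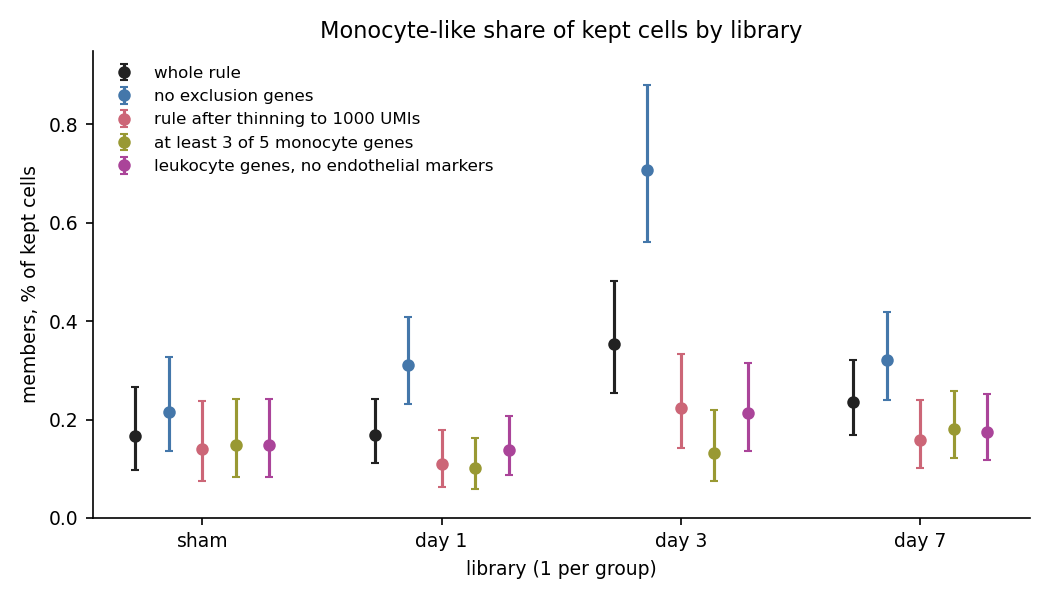
Share of kept cells (%) that met the membership rule in each library, under 5 forms of the rule, with points for the shares and bars for exact 95% binomial intervals. Day 3 is highest at 0.354% under the whole rule and falls to 0.133%, below the sham library, when 3 of 5 monocyte genes are required.

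The threshold itself was most crowded on day 3, where 25 of 40 members held exactly 2 monocyte genes, against 2 of 17, 11 of 28 and 9 of 39 in the other libraries. On day 3, 10 such cells held the pair Plac8 and Ms4a4c, which was found in 1 such cell in each other library. Of these 25 cells, 11 had 3 or more endothelial markers and 6 had at least 50 UMIs of Ttr, the choroid plexus gene of transthyretin. Just outside, cells with exactly 1 monocyte gene numbered 3, 36, 39 and 17, and they carried Lyz2 at 6118, 8998, 3405 and 17513 CPM. Members with exactly 2 genes carried it at 1556, 8366, 9378 and 5963 CPM and those with 3 or more at 13249, 10913, 13535 and 10259 CPM, so that cells just outside were below those just inside on day 3 and above them in the other libraries. These values are set by the rule and are given as a description.

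The leukocyte label held for most members. Of 124, 117 had at least 3 of Ptprc, Laptm5, Coro1a, Cd52, Cd53 and Arhgdib, and the 7 without were 1 cell of day 1, 5 of day 3 and 1 of day 7. Summed, these 6 genes were at 6677, 4689, 5088 and 5645 CPM in members and at 92.9, 101, 108 and 82.8 CPM in endothelial-like cells, whose gate limits these genes. Of the rule's lymphocyte and neutrophil genes, whose low levels the rule itself sets, Cd3d, Cd3e, Cd79a, Retnlg and Cxcr2 were at 0, Cd79b was found in 3, 1, 3 and 2 members, Csf3r in 4, 4, 8 and 10, S100a9 in 1, 1, 7 and 0 and S100a8 in 1, 10, 17 and 5. Among genes outside the rule, Ms4a1 was at 0 and no member had 2 of 7 further T or NK cell markers. Of 7 further neutrophil markers, at least 2 were found in 0, 4, 11 and 4 members, and their sum was 112, 241, 569.5 and 213 CPM in members and 48.4, 135, 2138 and 205 CPM in endothelial-like cells. Over all kept cells that sum was 40.4, 68.8, 1551 and 152 CPM, below the endothelial-like level in each library. It thus does not single out neutrophils. For S100a8 the top cell gave 100%, 95.2%, 85.4% and 36.0% of its UMIs. Further B cell markers were found, since 28 members (9, 4, 5 and 10) held at least 2 of 5 such genes, all through Cd37, Igkc and Ighm. Ttr was found in 17, 27, 40 and 33 members, at 508, 1469.8, 2139 and 459 CPM against 10979, 30493, 53203 and 12912 CPM in endothelial-like cells. All 6 endothelial markers were detected in each library, 32 members (2, 5, 15 and 10) had at least 3 of them, and their summed level was 891, 1185, 2386 and 1937 CPM against 20634, 15487, 18948 and 17445 CPM in endothelial-like cells. Mural cell markers, of which at least 2 of 6 were found in 3, 0, 13 and 3 members, summed to 3627, 65.8, 1399.9 and 65.6 CPM, and 1 sham cell gave 98.9% of Acta2 and 99.1% of Tagln UMIs there. Oligodendrocyte markers summed to 2427, 2994, 369 and 174 CPM. On day 3, 7 members, all with under 5 of 6 leukocyte genes, had at least 50 Ttr UMIs, and no member of another library did. Their part in the day 3 values was not tested.

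The members were not 1 kind of cell. They were grouped in a fixed order, with cut-offs chosen after their values were seen, by genes outside the rule and last by Ly6c2, a gene of the rule. First, 33 members were set aside for under 3 leukocyte genes (7) or for at least 3 endothelial markers beside leukocyte genes (26). Of the other 91 (15, 23, 24 and 29), 43 carried at least 3 of 10 non-classical monocyte genes. Of those left, 9 had all 3 C1q genes, then 15 had MHC class II genes at 1% of UMIs or more, then 21 carried Ly6c2, and 3 had none of these. The cells with Ly6c2 alone were 4, 8, 4 and 5, those with non-classical genes 8, 7, 14 and 14, those with high MHC class II 2, 2, 3 and 8, and those with C1q 1, 4, 2 and 2. Whatever their kind, 20 members had all 3 C1q genes (1, 7, 7 and 5).

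**Figure D2:**
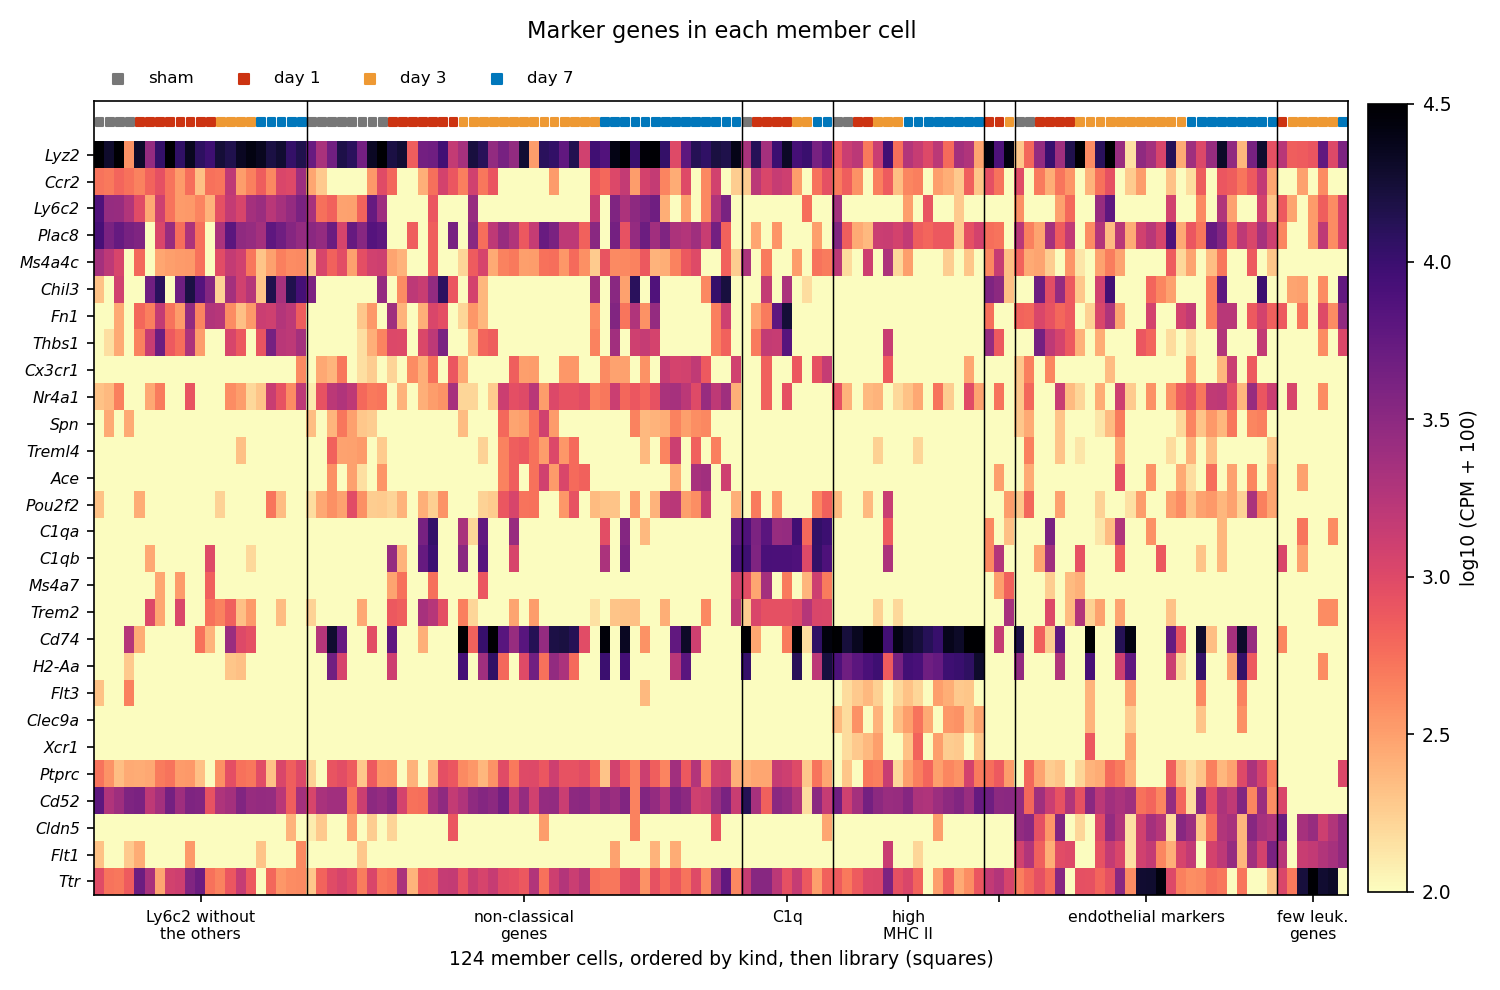
Level of 28 genes (rows) in each of the 124 members (columns), as log10 of CPM with 100 added, with members grouped by kind and colored by library in the squares at the top; the 3 cells between the high MHC class II and endothelial marker groups fitted no kind. Flt3 and Clec9a occur mainly in the high MHC class II block, in 11 and 12 of 15 cells. Other genes cross blocks: C1qa is in all 9 C1q cells and in 10 of the 43 cells with non-classical genes. Ace is in 16 of these 43 and in 9 of the 26 cells with endothelial markers beside leukocyte genes. Ly6c2 also occurs in 21 of the 43 cells with non-classical genes, and Cldn5 and Flt1 fill the 2 blocks on the right.

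**Figure D3:**
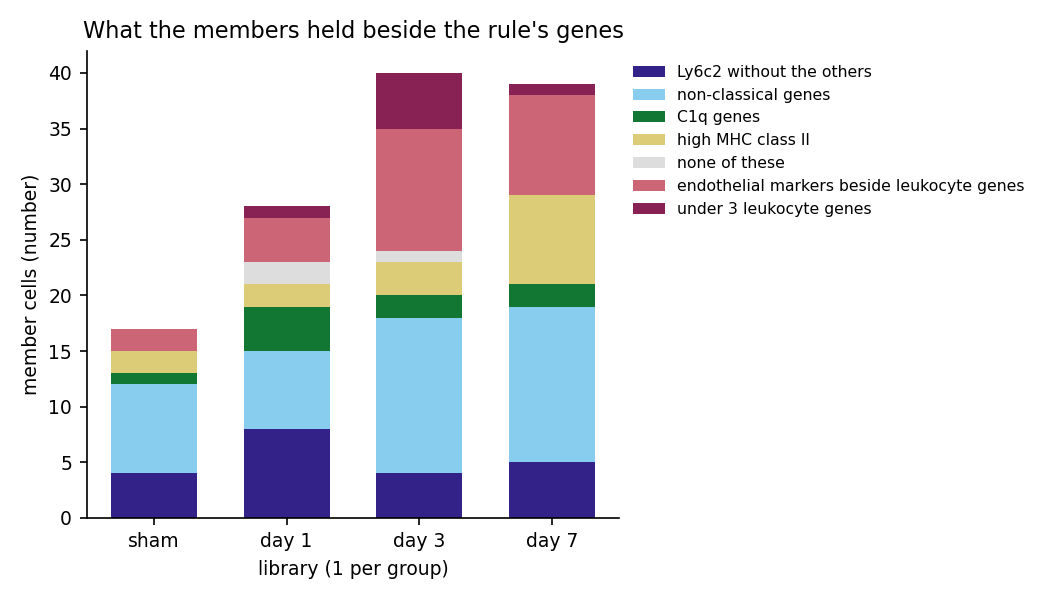
Number of members of each kind in each library, stacked from 0. Members with non-classical genes number 8, 7, 14 and 14, though those of day 1 lack Spn, Treml4, Ace and Cd300e, and members with endothelial markers or few leukocyte genes make up 16 of 40 on day 3.

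The 21 cells with Ly6c2 alone are described by genes that the rule or the grouping used. Over all libraries they held Ly6c2 at 1931 CPM and Chil3, a chitinase-like protein of young monocytes, at 3181 CPM in 17 cells, and Ccr2 was found in all 21. Their Cx3cr1 was at 5.19 CPM, from 1 cell. The 43 cells with non-classical genes held Cx3cr1, the fractalkine receptor, at 201 CPM, and Spn (CD43), Treml4 and Ace in 21, 19 and 16 cells. On day 1, 0 of the 7 such cells had a UMI of Spn, Treml4, Ace or Cd300e, against 7 of 8, 11 of 14 and 10 of 14 in the sham, day 3 and day 7 libraries, and they met the cut-off mainly through Nr4a1, Pou2f2, Cd300ld and Cx3cr1, each found in 5 of the 7. Of these 43, 21 still had a Ly6c2 UMI and 10 a C1qa UMI, so that the kinds overlap. They held Ly6c2 at 1146 CPM, Chil3 at 1624 CPM in 18 cells and Ccr2 at 405 CPM in 27 cells. Among the genes that the cut-off counted, Nr4a1 was found in 40 of the 43. The name of this kind thus stands for the counted genes only and does not make its cells non-classical monocytes. The 9 C1q cells had the macrophage genes C1qa at 5275 CPM, Apoe at 31562 CPM and Trem2 at 994 CPM.

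The 15 cells with high MHC class II go against the monocyte label. Lyz2 in them was at 1196 CPM against 19648 CPM in the cells with Ly6c2 alone, Chil3 was at 0, and Ly6c2 was found in 4 cells. These are genes of the rule, and the groups were formed by MHC class II and Ly6c2, so these values are a description. Among genes that neither the rule nor the grouping used, Csf1r, the receptor of the monocyte growth factor, was at 19.0 CPM. Flt3, the growth factor receptor of dendritic cells, was found in 11 of the 15, and Clec9a and Xcr1, which mark cross-presenting dendritic cells, in 12 and 10. They entered the rule mainly through Plac8, found in all 15, and Ccr2, found in 13. Of these cells, 8 were in the day 7 library.

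Levels of the rule's own genes are a description, since they chose the cells. Lyz2, lysozyme of myeloid cells, was at 12344, 9909.95, 11348 and 9106 CPM and at 2.92 to 11.1 CPM in endothelial-like cells. Ccr2 was at 318, 433, 289.6 and 479 CPM, with neighbouring libraries within a factor of 2 of each other. Ly6c2 was lowest on day 1, at 203 (143 to 279.7) CPM, and was found in 14, 12, 14 and 24 members. Plac8 was at 3524, 686, 1615 and 1737 CPM and Ms4a4c, a membrane protein of the MS4A family, at 792, 252, 279.98 and 207 CPM, both highest in the sham library. Chil3 was at 929, 2610.5, 610.2 and 1983 CPM, but 75.9% of the sham UMIs came from 1 cell, and it was found in 4, 20, 18 and 16 members. After thinning to 1000 UMIs, Ly6c2 was found in 64.7%, 14.3%, 22.5% and 41.0% of members (before thinning 82.4%, 42.9%, 35.0% and 61.5%) and in 0.324%, 0.115%, 0.391% and 0.429% of endothelial-like cells, of which 585, 1555, 684 and 1557 were too shallow to be thinned. Day 1 members thus held little Ly6c2 and much Chil3.

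Comparisons of other genes took a gene when 1 of the libraries compared held it at 100 CPM or more, with an endothelial-like level of at most 0.2 of the member level there, and counted a gene as past the fold when the ratio with 10 CPM added to both was at least 2 or at most 0.5. A gene under 100 CPM in 1 of the libraries compared thus entered only through the other, where it was high. Counts and medians over lists lean on such genes and are a description. With so few members, single cells move such ratios, and the shares of genes past the fold were high: day 1 over sham had 22.3% of 323 genes higher and 28.5% lower, together 50.8%, day 3 over sham 13.6% and 17.3% of 294 (together 31%), and day 7 over sham 18.2% and 20.7% of 314 (together 38.9%). Day 3 over day 1 had 12.9% and 14.8% of 263 (together 27.8%), and day 7 over day 3 had 12.2% and 12.5% of 279 (together 24.7%). List counts below are to be read against these shares, and nothing is called particular to a list. Scaling by the median ratio over genes of at least 100 CPM in both moved day 7 over sham by 0.16 on the log2 scale, and changed its share of higher genes among those past the fold from 46.7% to 59.4%.

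Genes of tissue macrophages and lipid handling were higher on day 1 than in the sham library. Of 14 such genes 7 could be compared, and 6 were past the fold upward with none downward, among them Spp1, Fabp5, Trem2, Apoe and Ms4a7. Their median log2 ratio was 3.52, unchanged to 2 decimals when a level of 0 was replaced by its bound of 3 UMIs, against -0.43 over all genes compared. Spp1, the secreted matrix protein osteopontin, was at 17.2, 2791, 1022 and 6.56 CPM in 2, 11, 9 and 2 members, with 35.4% of the day 1 and 75.6% of the day 3 UMIs in 1 cell. Sham and day 7 are low for Spp1, and below the endothelial-like levels, which were 22.9, 143, 47.2 and 39.9 CPM. Trem2, a lipid receptor of macrophages and microglia, was at 34.4, 499, 366 and 125 CPM in 3, 15, 21 and 9 members, a day 1 over sham ratio of 14.5 (interval 7.06 to 34.6). Apoe, which carries lipids, was at 813, 16025, 7763 and 13633 CPM, but 70.6% of the day 7 UMIs came from 1 cell, and endothelial-like cells held 1385, 1889.97, 1995 and 1864 CPM. The rule's border macrophage genes, which it limits but tolerates, summed to 228, 729, 1077 and 347 CPM in members. Further microglia markers summed to 99.0, 296, 177 and 138 CPM, below the 1679, 1986, 953 and 763 CPM of endothelial-like cells. Over all kept cells they summed to 1171, 1257, 1020 and 715 CPM, below the endothelial-like level except on day 3. This sum thus does not single out microglia. At least 2 of these 5 markers were found in 0, 4, 2 and 4 members. In members, the border macrophage and microglia sums were both higher on day 1 than in the sham library. Their part in the lipid and macrophage genes was not tested.

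Cxcl2, Thbs1 and Tgfbi were each highest on day 1. Cxcl2, a ligand that attracts neutrophils, was at 34.4, 2254, 742 and 325 CPM in 2, 18, 19 and 8 members, and its day 1 over sham ratio was 65.5 (interval 32.9 to 153). Thbs1 (thrombospondin 1) was at 47.3, 1185, 144 and 482 CPM in 5, 22, 13 and 15 members. It was higher on days 1 and 7 than on day 3, and day 3 was itself past the fold upward over sham. Tgfbi, a TGF-beta-induced matrix protein, was at 112, 1015, 323 and 249 CPM. Of the 12 matrix and protease genes it was 1 of 2 compared for day 1 over sham, the other being Plaur, the urokinase receptor, which was past the fold downward at 361, 132, 263 and 298 CPM. Fn1 (fibronectin) was at 73.1, 1064, 287 and 633 CPM, yet endothelial-like cells held 535, 770.1, 722 and 825 CPM, so that it was not compared. Of 15 chemokine genes, 9 were compared for day 1 over sham, with Ccl6, Ccl9, Cxcl2, Cxcl3 and Cxcl16 past the fold upward and Ccl4, Ccl5 and Cxcl9 downward. Sham Ccl5 and Cxcl9 each came from 1 cell. With cells of at most 3000 genes alone, which left 10, 24, 25 and 34 members, the summed chemokine ratio with 10 CPM added turned from above 1 to 0.979.

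The innate receptors Clec4e, Clec4d, Ccr1 and Cd14 of the classical monocyte list were past the fold upward for day 1 over sham. Clec4e (Mincle, which senses dead cells) was at 12.9, 170.01, 175 and 68.8 CPM, Clec4d at 8.60, 258, 163 and 13.1 CPM, Cd14, the lipopolysaccharide co-receptor, at 151, 636, 440.3 and 377 CPM and the chemokine receptor Ccr1 at 25.8, 219, 81.4 and 91.8 CPM. In the sham library Clec4e and Clec4d rested on 3 and 2 UMIs. For day 1 over sham, 6 of 10 compared classical monocyte genes were past the fold upward (Vcan, Thbs1, Clec4e, Clec4d, Ccr1 and Cd14) and Ifitm6 and Gpr141 downward, with a median log2 ratio of 2.34, or 2.32 with Vcan, at 0 in the sham library, taken at its bound of 3 UMIs. The summed level of the list was 0.981 (interval 0.916 to 1.05) times sham on day 1, 0.721 (interval 0.679 to 0.766) on day 3 and 0.747 (interval 0.701 to 0.797) on day 7, differing in sign from the day 1 median. Most of the sham sum came from Ifitm3, an interferon-induced gene that missed the background limit and was not compared, at 6652, 3696, 3599 and 3491 CPM in members and 4699, 2162, 3949 and 1642 CPM in endothelial-like cells. For day 7 over sham Thbs1 and Cd14 of 6 compared were past the fold upward and none downward. The complement receptors C5ar1 and C3ar1 were both highest on day 1 and lowest in the sham library, C5ar1 at 0, 181, 71.8 and 72.1 CPM in 0, 18, 13 and 11 members and C3ar1 at 4.30, 143, 16.8 and 29.5 CPM.

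Macrophage genes also differed by day. Cd68, a lysosomal glycoprotein, was at 207, 565, 469 and 187 CPM, and Fcgr1, the high-affinity IgG receptor, at 323, 181, 112 and 85.2 CPM, so that it ran the other way, highest in the sham library. The C1q genes were low in the typical member: C1qa was found in 1, 8, 14 and 7 members, and all its sham UMIs came from 1 cell. Complement genes summed to 1514, 5111, 1625 and 2658 CPM, and the day 1 over sham ratio with 10 CPM added turned to 0.856 when members with over 3000 genes were left out.

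Of 12 lysosomal genes, 10 were compared for day 1 over sham and 5 were past the fold upward, among them Ctsb, Ctsd, Lgmn and Grn, and none downward. Of 8 iron and heme genes, 2 were compared, Hmox1 and Ftl1, and both were past the fold upward. Hmox1 and Ctsd, at 47.3 and 64.5 CPM in the sham library, entered only through day 1. Ctsd (cathepsin D) was at 64.5, 1749, 974 and 443 CPM, with a day 1 over sham ratio of 27.1 (interval 16.2 to 49.0), although 43.5% and 46.7% of the day 3 and day 7 UMIs came from 1 cell. Lgmn (legumain, a lysosomal protease) was at 138, 1420.4, 273 and 243 CPM and Ctsb (cathepsin B) at 568, 2309, 1369 and 629 CPM. Hmox1, which breaks down heme, was at 47.3, 724, 1625 and 285 CPM in 6, 19, 11 and 12 members, with 55.2% and 85.1% of the day 3 and day 7 UMIs in 1 cell. Ftl1 (ferritin light chain, which stores iron) was at 3326, 10288, 13556 and 3452 CPM and was found in every member, with 48.6% of day 3 UMIs in 1 cell. In the 91 members with under 3 endothelial markers and at least 3 leukocyte genes, Ftl1 was at 3446, 11088, 10635 and 3878 CPM, with day 1 above day 3. Fth1 (ferritin heavy chain) was at 6320.3, 24372, 17890.1 and 6936 CPM, beside 4787, 9483, 12616 and 5134 CPM in endothelial-like cells, which were higher on days 1 and 3 too.

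Il1b, the cytokine interleukin 1 beta, was highest on day 3. It was at 81.7, 411, 1067 and 429 CPM in 7, 16, 26 and 18 members, and at 0.0767 to 2.29 CPM in endothelial-like cells. Day 3 was 2.59 (interval 2.03 to 3.36) times day 1 and 13.1 (interval 8.26 to 21.9) times sham, and its top cell gave 13.9% of the day 3 UMIs. Tnf stayed at or below 64.6 CPM, and Il6 and Nos2, further inflammatory genes, had at most 1 member with a UMI in each library.

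**Figure D4:**
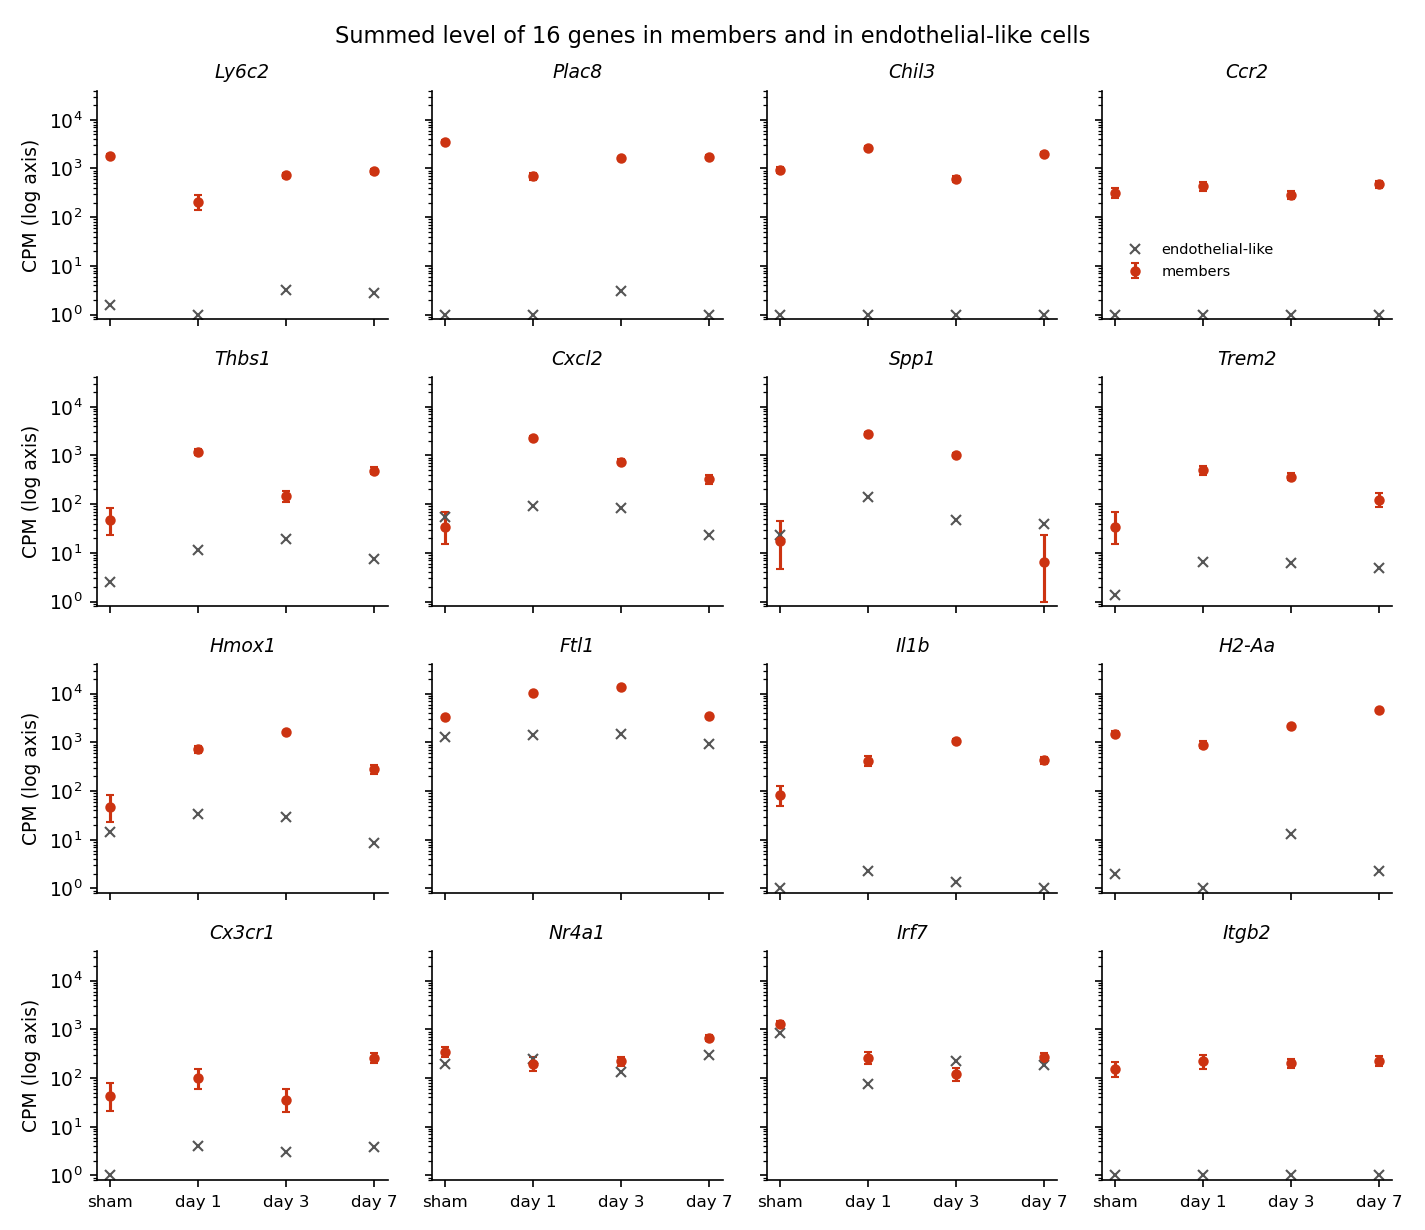
Summed CPM (log axis) of 16 genes in members (points, with exact 95% Poisson intervals for counting error) and in endothelial-like cells (crosses) of each library; levels under 1 CPM are drawn at 1. Ly6c2 and Plac8 are lowest on day 1, Cxcl2, Spp1, Thbs1 and Trem2 highest on day 1, Il1b highest on day 3, and H2-Aa and Cx3cr1 highest on day 7.

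Of the 10 non-classical monocyte genes, 9 were detected on day 1, when their sum was lowest, but Spn, Treml4, Ace and Cd300e were then rare. Spn was found in 10, 1, 11 and 15 members, Treml4 in 6, 1, 14 and 9, Ace in 5, 1, 12 and 9 and Cd300e in 5, 0, 8 and 3, so that on day 1 each was found in at most 1 of 28 cells. Spn was at 86.0, 5.48, 47.9 and 85.2 CPM and at most 0.126 CPM in endothelial-like cells, and day 1 over sham was 0.0637 (interval 0.00154 to 0.398) from 1 UMI on day 1. Members of day 1 were also the shallowest, and 3 UMIs there would be 16.5 CPM. Cx3cr1 was at 43.0, 98.7, 35.9 and 262 CPM, with day 7 at 7.31 (interval 4.18 to 13.7) times day 3. Nr4a1 was at 344, 197, 223 and 672 CPM in 15, 14, 27 and 34 members, but at 195, 251, 136 and 297 CPM in endothelial-like cells, so that the part of background in its member level cannot be told. Of the 10 genes, 2 or 3 passed the limits in 4 of the comparisons and none in day 3 over day 1, with Eno3 past the fold downward in each comparison with sham and Cx3cr1 upward for day 7 over sham and over day 3. The list summed to 989.6, 433, 756 and 1626 CPM, and day 7 over day 3, 2.15 (interval 1.86 to 2.48), came to 0.996 with 10 CPM added when members with over 3000 genes were left out.

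MHC class II genes were high in a minority of members and increased in the sum from day 1 to day 7. H2-Aa was at 1514, 905, 2139 and 4534 CPM in 7, 4, 22 and 18 members, and Cd74, the invariant chain that guides class II molecules, at 7469, 3828, 9615 and 10437 CPM in 9, 14, 26 and 21. For day 3 over day 1, 5 of 6 compared class II genes were past the fold upward with a median log2 ratio of 1.28, and for day 7 over sham 3 of 6 (H2-Aa, H2-Ab1 and H2-Eb1), against none for day 1 or day 3 over sham. Of 37 members with class II genes at 1% of UMIs or more (5, 3, 14 and 15), 18 had at least 2 of 10 dendritic cell genes, 9 of them on day 7. Both the level per cell and the number of dendritic-gene cells enter these sums, and they were not separated.

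Interferon-induced genes were highest in the sham library, in members as in endothelium. Irf7, a regulator of the interferon response, was at 1321, 263, 119.7 and 269 CPM in members and 845, 76.2, 219.7 and 184 CPM in endothelial-like cells, and Isg15 at 1011, 324, 124 and 128 and 1844, 193, 388 and 283 CPM. The 12 genes summed to 4991, 1568, 948 and 1426 CPM in members, 6105, 862, 1849.8 and 1524 CPM in endothelial-like and 3064, 1348, 1097 and 1172 CPM in microglia-like cells. Ifi204, which endothelial-like cells held at 1.03 to 2.07 CPM, was the sole gene that passed the background limit, and was at 241, 181, 88.5 and 170.5 CPM.

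For day 1 over sham, 2 of 5 compared genes of the phagocyte NADPH oxidase (Cybb and Rac2) and 2 of 5 of adhesion (Itga4 and Itgb7) were past the fold downward and none upward. Over all 323 genes compared, 28.5% were past the fold downward, and counts of 2 of 5 do not set these families apart from that share. Cybb, the catalytic subunit, was at 516, 197, 483 and 879 CPM, lowest on day 1, and Cyba, its partner in the membrane, at 2057, 2342, 2266 and 1475 CPM. Itgb2, the integrin beta 2 chain of leukocytes, was at 151, 219, 201 and 229 CPM, and day 1 over sham was 1.46 (interval 0.902 to 2.36). It was found in 41.2%, 28.6%, 22.5% and 15.4% of members thinned to 1000 UMIs (82.4%, 67.9%, 72.5% and 69.2% before thinning) and in 0.0171%, 0.129%, 0.135% and 0.115% of endothelial-like cells, but thinned to 500 UMIs in 5.88, 14.3, 15.0 and 10.3% of members. The sham share was thus the highest at 1000 UMIs and the lowest at 500, and no order was read from these shares. Itgal, its LFA-1 partner, was at 51.6, 38.4, 110.1 and 197 CPM and Cd44, the hyaluronan receptor, at 112, 208, 141 and 259 CPM, and both were past the fold upward for day 7 over sham.

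Members were set beside the other myeloid cells of the same libraries, gated by genes of the rule, as a description. Microglia-like cells numbered 88, 458, 272 and 196, border macrophage-like cells 38, 89, 27 and 17, and neutrophil-like cells 15, 44, 102 and 31. MHC class II genes summed to 13161, 7272, 18536 and 26113 CPM in members, 2519, 313, 479 and 437 CPM in microglia-like and 2795, 331, 1857 and 8352 CPM in border macrophage-like cells. The member sums were the highest in each library but came mostly from a minority of members, and the median member held 1048, 252, 2542 and 573 CPM. Complement genes ran the other way, at 1514, 5111, 1625 and 2658 CPM in members and 24020.1, 23134, 28557 and 21162 CPM in microglia-like cells. S100 and annexin genes were at 13725, 13249.8, 10319 and 7946 CPM in members, 1385, 1522, 1256 and 1166 CPM in microglia-like, 1769, 6757, 4684 and 2511 CPM in border macrophage-like and 22599.9, 8779, 14369 and 12256 CPM in neutrophil-like cells, which exceeded members in all libraries but that of day 1. Iron and heme genes were higher on day 1 than in the sham library in all 5 classes, at 10429, 36909, 36706 and 11339 CPM in members and 7234, 12374, 15238 and 7414 CPM in endothelial-like cells.

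**Figure D5:**
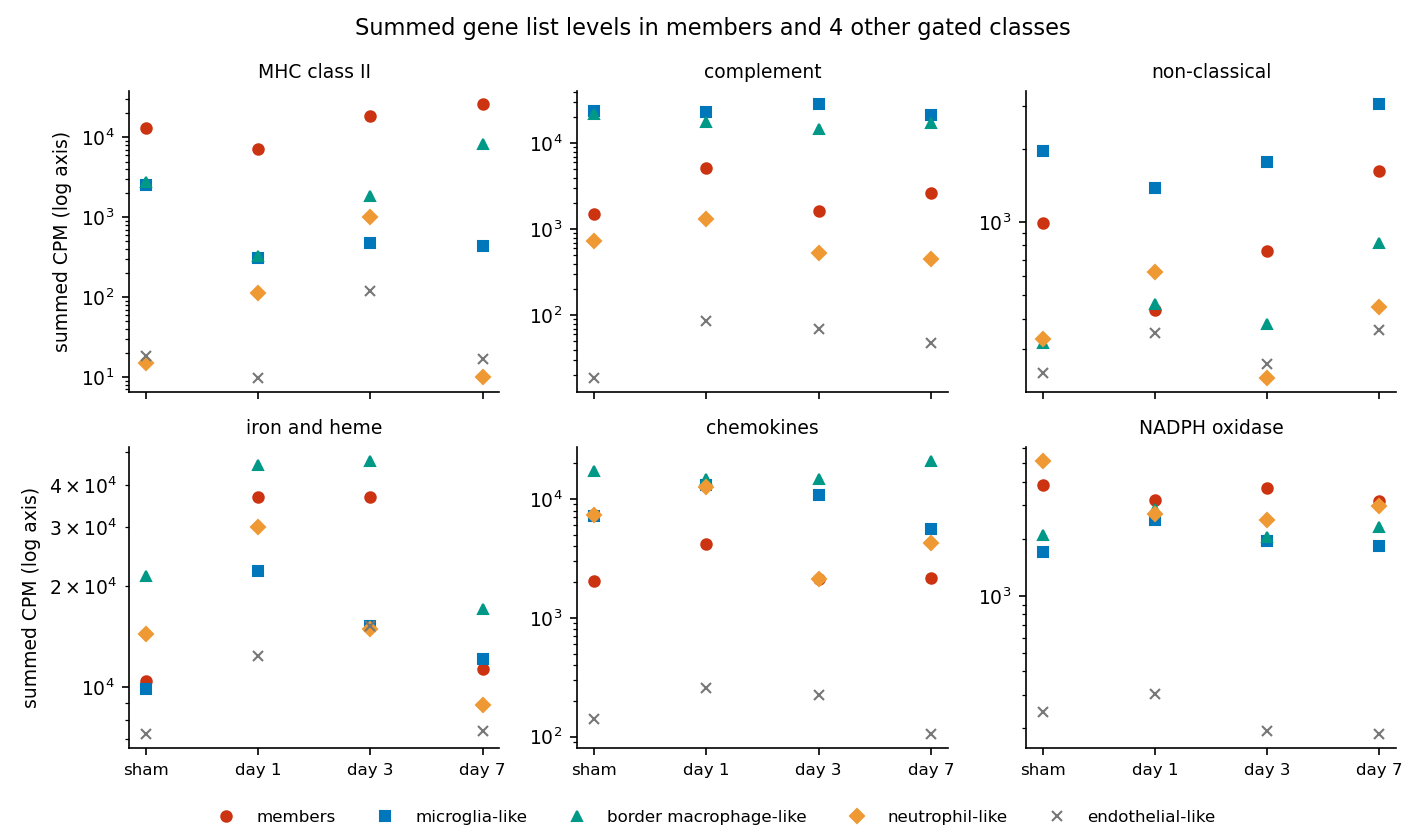
Summed CPM (log axis) of 6 gene lists in members and in 4 other gated classes of each library, 1 point per class and library. The summed levels of members lie above those of the other classes for MHC class II in all 4 libraries, although the median member holds 1048, 252, 2542 and 573 CPM, and below those of microglia-like and border macrophage-like cells for complement and chemokines.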

How the data were processed

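Raw UMI counts, as deposited by the authors, came from 10× Genomics 3′ libraries, 1 matrix of genes by cells per library, filtered to called cells and not normalized. The file headers name Cell Ranger 4.0.0, while the submitters' processing notes name Cell Ranger 3.0.1, Seurat 4.1.2 and a human build, although all gene identifiers are mouse. Of 31053 identifiers, 31011 matched GENCODE vM21 (GRCm38), which gave coordinates.

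Members and gene lists were chosen with earlier results of these data known. Cells were gated per library without clustering or integration. Named genes come from the rule, the 18 lists, the marker lists of leukocytes and other cell types, and the copies of rule genes. Some named genes, such as Spn and Tnf, did not reach the expression minimum of 100 CPM. Each library had under 50 members, so genes were not ranked. Some genes of the lists are not reported here. CPM, ratios and shares were computed here from the counts, with exact Poisson, conditional and binomial (Clopper-Pearson) intervals at 95%, which cover counting error only. Scrublet, through scanpy 1.11.5, called doublets, which were kept except in an alternative. Python 3.11.15, numpy 2.4.6, pandas 2.3.3, scipy 1.17.1 and matplotlib 3.10.9 were used. The ratios were tried on simulated summed counts that held no differences between cells and no background limit. That trial does not cover single cells that carry much of a gene. Of the alternatives tried, 3 were chosen after seeing the data: no exclusion genes, and, for shares and for genes, members with at least 3 leukocyte genes and under 3 endothelial markers.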

Additional observations from a re-analysis of the deposited data

How the results depend on the processing

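No paired analysis was possible because each group is 1 library, and no library could be left out of a group. The share of members moved beyond its counting interval in 13 of 36 alternative values. In the leukocyte-like denominator it was 7.33%, 2.77%, 5.19% and 7.00%. Thinning to 1000 UMIs moved days 1, 3 and 7 to 0.110%, 0.223% and 0.159%, 3 of 5 monocyte genes moved days 1 and 3 to 0.102% and 0.133%, a 5% mitochondrial limit moved day 7 to 0.332%, no exclusion genes moved days 1 and 3 to 0.311% and 0.708%, and leaving out cells with at least 3 endothelial markers or under 3 leukocyte genes moved day 3 to 0.212%.

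Counts of genes past the fold stayed within 1.5 times in 40 of 55 alternative values. Without the background limit they were 432 (day 1 over sham), 260 (day 3 over sham), 427 (day 7 over sham), 214 (day 3 over day 1) and 269 (day 7 over day 3), from 164, 91, 122, 73 and 69. With a minimum of 20 UMIs instead of 100 CPM they were 143, 187, 129 and 123 for day 3 over sham, day 7 over sham, day 3 over day 1 and day 7 over day 3. With 50 CPM added they were 79 for day 7 over sham and 42 for day 7 over day 3. With at most 3000 genes per cell they were 146 for day 3 over sham and 143 for day 3 over day 1, the latter also 127 with 3 of 5 monocyte genes and 111 with the mean of the cells' own CPM. The cause of these moves was not tested beyond the alternatives' construction.

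Of 990 list ratios, 930 kept within 1.5 times, 55 moved and 5 reversed, all with at most 3000 genes per cell: complement 0.856 and chemokines 0.979 for day 1 over sham, cell cycle 1.95 for day 7 over sham and 2.66 for day 7 over day 3, and non-classical genes 0.996 for day 7 over day 3. The 17 to 40 members per library limit the precision, as does depth, since thinning alone moved 3 of 4 shares and leaving cells unthinned or thinning to 500 UMIs moved 5 of 8 shares of members with an Itgb2 UMI.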

Other observations

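A few members of each library carried proliferation genes. Mki67 and Top2a, which mark cells in the division cycle, were both found in 3 of 17, 2 of 28, 6 of 40 and 2 of 39 members, and these 13 cells had a median of 15054 UMIs, deeper than the members as a whole. Mki67 was at 129, 21.9, 79.0 and 45.9 CPM and Top2a at 142, 27.4, 146 and 72.1 CPM. The 10 cell cycle genes summed to 2151, 1420.4, 1934 and 908 CPM, a lower level on day 7 that turned to ratios of 1.95 over sham and 2.66 over day 3 when members with over 3000 genes were left out, and 53.3% of the sham Mki67 UMIs came from 1 cell.

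Pf4, a platelet and macrophage chemokine that the rule tolerates, was at 0, 449.7, 802 and 3.28 CPM in 0, 9, 5 and 1 members, with 56.1% and 63.9% of the day 1 and day 3 UMIs in 1 cell. Lgals1 (galectin 1) was lowest on day 7, at 1114, 1574, 924 and 207 CPM in 13, 26, 26 and 20 members, and day 7 over sham was 0.185 (interval 0.138 to 0.245). Hypoxia and glycolysis genes summed to 2396, 4119, 3197 and 2209 CPM in members and 3399.8, 4136, 4919 and 4009 CPM in endothelial-like cells. Prdx1, a peroxide-removing enzyme, was at 568, 1272, 3010.4 and 429 CPM, with 40.9% of the day 3 UMIs in 1 cell.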
